A study of Mus musculus with 54 samples.

Results

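The comparison set the thymus of irradiated mice at 6, 7 and 8 h against the same organ at 3, 4 and 5 h, and asked how its messenger RNA moved on between these windows. All 6 libraries came from thymus of C57B6 mice that had received 10 Gy of gamma radiation. No other allele or agent is named in the labels, and they give no age. There was 1 library per hour, so neighbouring hours served as the 3 replicates of a window. The labels do not say whether the hours came from separate animals. The p-values come from a fit over the libraries of thymus, spleen, small intestine and large intestine together. They measure only the spread between hours of the same window, pooled over these tissues, and not that of the thymus libraries alone. The members were the genes with a mean of at least 1 FPKM over the 6 libraries, 12175 of 13611. FPKM is the number of fragments from a gene, divided by transcript length and by library size. The 6 libraries are among 10 of thymus and 54 in the series, which also covers spleen, small intestine, large intestine and NIH3T3 fibroblasts. An unirradiated thymus was sequenced at 0 h only, so time since irradiation and time of day or handling cannot be told apart.

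The thymus is where T cells are made. Immature thymocytes enter as double negative cells, divide, become double positive cells that carry both CD4 and CD8, and rearrange their antigen receptor genes with the RAG enzymes. Double positive thymocytes are among the most radiation-sensitive cells of the body and die by a p53-dependent route, and macrophages and other phagocytes clear them. Thymic epithelial cells form the stroma, and the transcription factor FOXN1 sets their identity.

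The label of thymus was checked against defining markers of thymocytes, and these were high at every hour. Rag1 lay between 176 and 422 FPKM, Dntt between 136 and 358 FPKM and Cd8a between 120 and 332 FPKM. Muscle genes stood out at 4 h, where the 8 muscle genes measured summed to 301 FPKM, against 38.8 FPKM at 3 h, 110 FPKM at 5 h and 23.3 to 33.7 FPKM at 6 to 8 h. The summed level of 16 fat genes was 841 FPKM at 8 h and 1888 to 2920 FPKM at the other 5 hours. The 8 h library also listed 330 of 13611 genes at exactly 0, against 128 to 204 in the other 5. Steps between low FPKM values put its depth at either 0.4 or 0.8 times that of the 3 h library, and the depths of the others at 0.795 to 1.25 times. In bulk tissue, fewer cells of a type and less RNA per cell cannot be told apart.

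Between 3-5 h and 6-8 h, 11 of 14 neutrophil genes and 13 of 28 interferon-stimulated genes rose in the thymus, while 37 of 38 genes of DNA replication and 15 of 27 genes of double positive thymocytes fell. At an adjusted p below 0.05 in limma, 1236 of the 12175 genes rose, which is 10.2%, and 883 fell, which is 7.25%. The rise was at least 2-fold in 356 genes and the fall in 133. The median change over all genes tested was -0.00 on the log2(FPKM + 1) scale, on which all changes below are given with the standard error of the fit. All 3 late libraries lay above all 3 early ones in 22.8% of the genes tested and below them in 20.6%. Among the 2119 called genes, 2056 had windows that did not overlap. Of the called genes, 465 increased at each step from 3 to 8 h and 139 decreased at each step. Without the 8 h library 547 genes rose and 336 fell, and without the 3 h library 551 rose and 362 fell. Quantile normalization, which forces every library to the same distribution, gave 1497 higher and 1669 lower, a share of higher calls of 47.3% against 58.3% here.

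**Figure D1:**
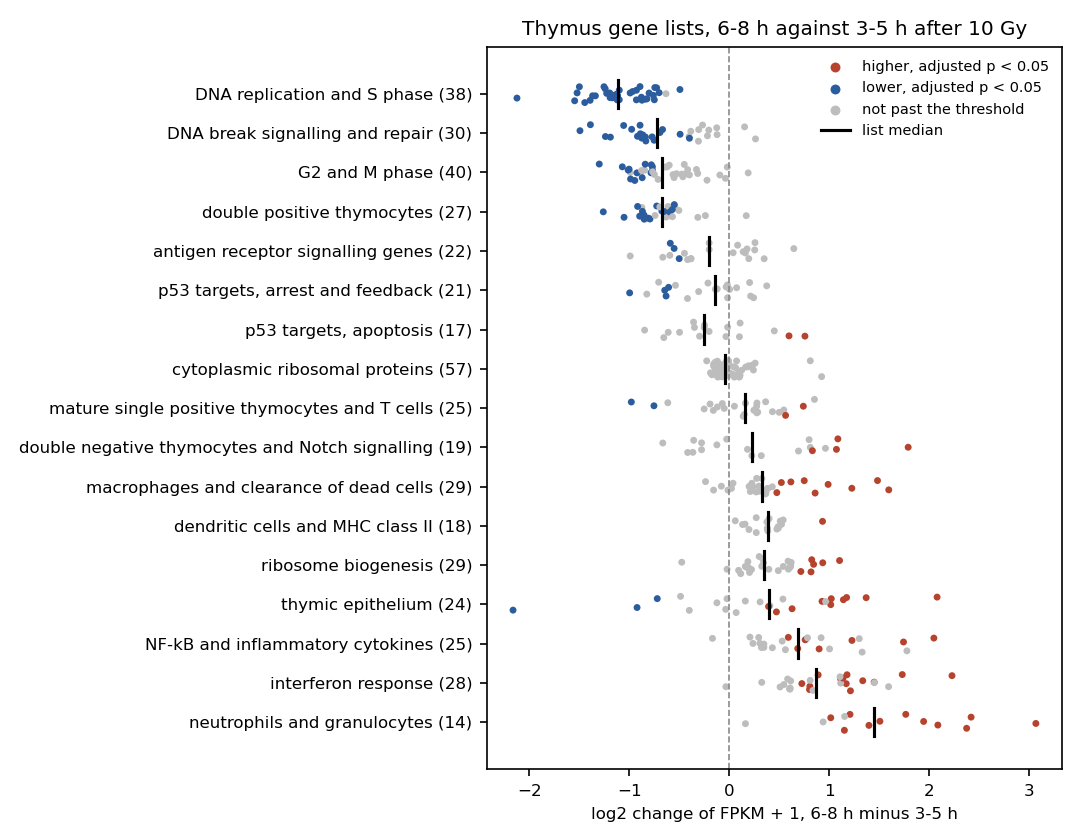
Each point is a gene of the named list, placed by its log2 change of FPKM + 1 between 3-5 h and 6-8 h in thymus; black bars are list medians and the number of genes tested is in brackets. Replication genes lie left of 0 with a median of -1.11, neutrophil genes lie right of 0 with a median of 1.46, and cytoplasmic ribosomal proteins centre on -0.04.

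The list of DNA replication had the largest share of calls among the 40 lists. Of 38 S phase genes tested, 37 fell and 0 rose, with a median of -1.11, against 7.25% lower and a median of -0.00 over all genes. At an unadjusted p below 0.05 in limma, 38 were lower and still 0 higher. Ccne2, cyclin E2, which drives cells from G1 into S phase, stood at 17.7, 6.91, 6.79, 1.87, 1.74 and 0.762 FPKM from 3 to 8 h, and at 16.2 FPKM in the untreated thymus. It had the lowest change of the list at -2.13 ± 0.42 (adjusted p = 0.00127), and its windows did not overlap. Pola1, the catalytic subunit of the polymerase that primes each new strand, measured 12, 7.25, 7.51, 2.97, 3.25 and 3.0 FPKM. Its 3 late values were nearly equal, and the change was -1.25 ± 0.20 (adjusted p = 0.000208). Cdc45, part of the helicase that unwinds DNA at the fork, went from 16.3 to 18.6 FPKM in the early window to 4.56 to 8.16 FPKM in the late one (-1.34 ± 0.22). Tyms, which makes thymidylate, measured 14.8, 9.51, 8.27, 4.24, 3.21 and 3.05 FPKM and fell at every hour (-1.37 ± 0.24). Pcna, the sliding clamp, dropped from 125 FPKM at 3 h to 56.9 FPKM at 5 h and then held between 34.1 and 35.0 FPKM (-1.17 ± 0.21, adjusted p = 0.000552). Much of its fall lay inside the early window. Ccne1, cyclin E1, was the 1 member not called (-0.63 ± 0.26, adjusted p = 0.0983). The list held 21 calls when the 3 h library was left out and 23 when the 8 h library was, and 20 genes were called in each of the 6 fits that left out a library.

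Several of the 10 falls named by rank, which left out genes near 0 or with overlapping windows, belonged to the same machinery. Gins1, a subunit of the replicative helicase, measured 13.3, 12.5, 11.9, 4.68, 3.51 and 3.10 FPKM, an early plateau followed by a step down (-1.52 ± 0.28). Prim1, the primase, fell at every hour from 54.7 to 10.0 FPKM (-1.50 ± 0.32). Rrm2, the subunit of ribonucleotide reductase that is made in S phase, had early values of 77.4 to 108 FPKM and late values of 23.9 to 48.7 FPKM (-1.45 ± 0.28). Clspn, claspin, an adaptor of the replication checkpoint, changed by -1.49 ± 0.22, and Tcf19, a gene switched on in dividing cells, by -1.46 ± 0.27. Pbk, a kinase of dividing cells, changed by -1.53 ± 0.30. Lig1, which seals Okazaki fragments, had the values 19.4, 13.5, 14.8, 7.78, 5.25 and 2.42 FPKM (-1.55 ± 0.52, adjusted p = 0.0423). In the fit over 4 tissues its call depended on single thymus libraries. It was lost without the 3, 4, 5, 7 or 8 h library, with adjusted p between 0.0687 and 0.229. The spread in that fit included a large intestine value of 0.00163 FPKM at 6 h, against 2.55 to 4.98 FPKM at the other hours from 3 to 8 h. With only the 6 thymus libraries in the limma fit, the adjusted p of Lig1 was 0.0273. Syt13, a synaptotagmin of membrane traffic, was also among the 10 falls named by rank. It stood at 39.1, 45.2 and 33.2 FPKM early and at 18.1, 10.8 and 7.54 FPKM late (-1.68 ± 0.25).

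Promoters of replication genes often carry sites for E2F factors, which switch on genes at the G1 to S transition, so these letters were looked for. RefSeq promoter windows of 300 bases on GRCm38.p6, the assembly that mm10 names, were matched for 9693 of the tested genes. The letters TTTCGCGC or TTTGGCGC, with each window counted once and both strands read, were in 1.5% of all 12316 windows, in 0.490% of those of risen genes and in 4.11% of those of fallen genes. In the S phase list windows were matched for 30 genes, some with more than 1 window, and the other tested genes were not searched. Of these 35 windows 9 held the letters, which is 25.7%. These 9 belonged to Cdt1, Lig1, Mcm3, Mcm5, Mcm6, Mcm7, Pola1, Rfc3 and Uhrf1. The 4 MCM windows with a match are shown because these genes code for subunits of one complex, the ring helicase loaded at replication origins. Capitals mark the E2F letters on either strand, and each window runs 5′ to 3′ from 250 bases before the start site.
Mcm3: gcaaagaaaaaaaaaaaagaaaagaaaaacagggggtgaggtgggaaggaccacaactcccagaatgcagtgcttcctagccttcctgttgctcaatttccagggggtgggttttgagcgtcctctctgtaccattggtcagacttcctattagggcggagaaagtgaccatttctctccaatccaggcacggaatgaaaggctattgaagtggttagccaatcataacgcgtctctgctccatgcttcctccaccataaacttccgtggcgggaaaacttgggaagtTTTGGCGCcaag
Mcm5: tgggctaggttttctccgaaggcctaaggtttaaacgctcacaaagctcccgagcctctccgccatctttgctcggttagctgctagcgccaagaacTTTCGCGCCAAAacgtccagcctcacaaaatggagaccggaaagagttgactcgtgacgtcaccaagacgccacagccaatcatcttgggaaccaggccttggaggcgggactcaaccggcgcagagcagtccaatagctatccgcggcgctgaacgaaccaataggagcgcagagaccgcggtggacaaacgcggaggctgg
Mcm6: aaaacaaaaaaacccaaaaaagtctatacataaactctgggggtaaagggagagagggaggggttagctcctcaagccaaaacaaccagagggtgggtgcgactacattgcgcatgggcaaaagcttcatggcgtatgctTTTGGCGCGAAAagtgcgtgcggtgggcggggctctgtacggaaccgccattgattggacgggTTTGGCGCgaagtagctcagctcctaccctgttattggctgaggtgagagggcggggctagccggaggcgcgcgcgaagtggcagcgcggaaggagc
Mcm7: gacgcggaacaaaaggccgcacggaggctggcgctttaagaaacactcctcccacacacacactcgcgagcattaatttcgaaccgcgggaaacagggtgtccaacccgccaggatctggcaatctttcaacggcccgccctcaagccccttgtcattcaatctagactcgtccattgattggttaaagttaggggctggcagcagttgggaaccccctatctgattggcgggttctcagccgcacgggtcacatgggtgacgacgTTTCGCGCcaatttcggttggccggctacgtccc
The windows lie at chr1:20820263-20820562 on the minus strand, chr8:75109259-75109558 on the plus strand, chr1:128359656-128359955 on the minus strand and chr5:138171834-138172133 on the minus strand. A second Mcm7 window and the Mcm2 window held no match, and no Mcm4 window was searched. In Mcm5 and Mcm6 the 2 spellings overlap on opposite strands, and Mcm6 holds a further copy nearer its start site. Mcm5 measured 33.9, 22.7, 22.9, 13.1, 10.3 and 5.87 FPKM (-1.39 ± 0.28). Mcm7 changed by -1.20 ± 0.24, Mcm3 by -0.99 ± 0.23 and Mcm6 by -0.93 ± 0.24, and the call of Mcm6 was lost without the 3 h library. The remaining subunits Mcm2 (-0.87 ± 0.23) and Mcm4 (-0.70 ± 0.19) also fell, with calls that were lost without the 3 h or the 8 h library. For all 6 subunits the early and late values did not overlap. A match of letters is a description of the sequence and was not tested as a binding site.

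**Figure D2:**
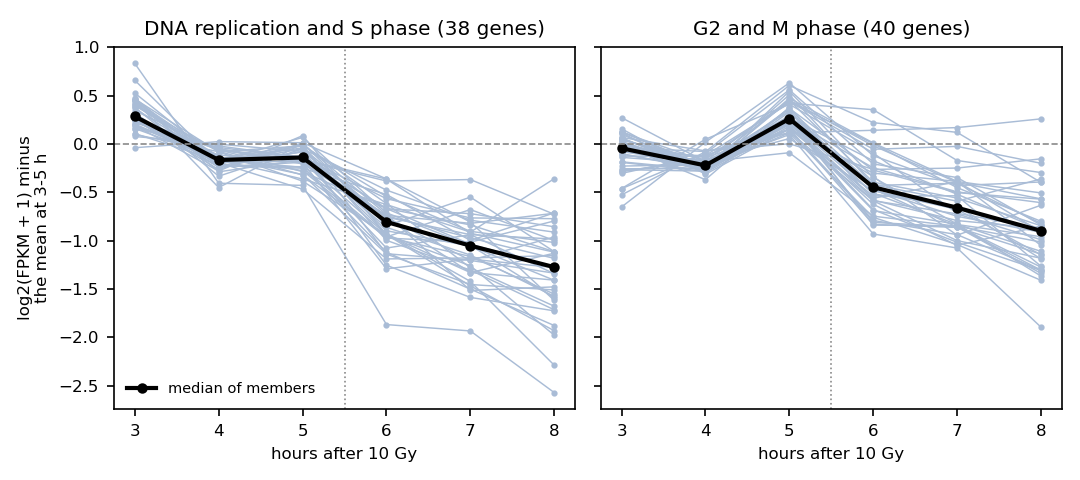
Thin lines are genes, drawn as log2(FPKM + 1) at each hour after 10 Gy minus the gene's own mean at 3-5 h, and the black line is the median of the list; the dotted line separates the windows. S phase genes lie below their early mean from 6 h on, while most G2 and M phase genes peak at 5 h among the hours drawn before they lie lower, in step with summed levels of 1151 FPKM at 5 h and 490 FPKM at 8 h.

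Within the 6 hours, the summed level of mitotic genes was highest at 5 h. Summed over the 40 G2 and M phase genes, the level was 948, 819 and 1151 FPKM at 3, 4 and 5 h and 694, 593 and 490 FPKM at 6, 7 and 8 h. It was 1875, 1321 and 982 FPKM at 0, 1 and 2 h, so the 5 h level lay below those of 0 and 1 h. The summed S phase level was 1566, 1935 and 1424 FPKM at 0, 1 and 2 h, 1004 FPKM at 3 h and 303 FPKM at 8 h, so it was already lower at 3 h than at any of the hours before. Of the 40 genes, 13 fell, against 7.25% over all genes, and 0 rose, with a median of -0.67, and at an unadjusted p below 0.05 in limma 21 were lower and 0 higher. Bub1, a kinase of the spindle checkpoint, measured 11.4, 7.98, 11.4, 5.27, 5.13 and 4.06 FPKM (-0.94 ± 0.22, adjusted p = 0.00531). Mad2l1, of the same checkpoint, changed by -0.87 ± 0.22, and the motor protein genes Kif4 and Kif11 by -0.84 ± 0.22 and -1.0 ± 0.28. Mki67, the proliferation antigen Ki-67, had early values of 45.8 to 64.3 FPKM and late values of 23.9 to 36.6 FPKM (-0.92 ± 0.30, adjusted p = 0.0341). Ccnb1, cyclin B1, which starts mitosis, measured 2.14, 3.28, 5.89, 4.27, 3.92 and 2.43 FPKM and its windows overlapped fully (-0.02 ± 0.30, adjusted p = 0.975). The untreated thymus held 17.9 FPKM of Ccnb1, above all 6 values. In the list 1 gene was called lower without the 3 h library, without the 5 h library 4, without the 7 h library 7 and without the 8 h library 2. Bub1 kept its call in each of these fits. Mad2l1, Kif4, Kif11 and Mki67 each lost theirs in at least 2 of them.

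Genes that sense and repair DNA breaks fell in 19 of 30 cases, against 7.25% over all genes, with a median of -0.72. In limma 0 rose, at an adjusted or an unadjusted p below 0.05. Brca1, which acts in homologous repair, went from 6.21 to 8.06 FPKM early to 2.13 to 3.61 FPKM late (-1.19 ± 0.19). Lig4, the ligase of end joining, which also seals antigen receptor rearrangements, changed by -0.86 ± 0.16. Brca1, Lig4 and Clspn kept their calls without any 1 library, while 11 of the list were called without the 3 h library and 12 without the 8 h library.

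Targets of p53, the factor that damage activates, were already high at 3 h, and few of them passed the test between the windows. Cdkn1a, the inhibitor p21 that stops the cell cycle, measured 228, 268, 233, 274, 254 and 320 FPKM against 9.88 FPKM in the untreated thymus (0.22 ± 0.27, adjusted p = 0.632). Mdm2, which degrades p53, stayed between 96.8 and 122 FPKM (0.07 ± 0.15), and Ccng1, cyclin G1, between 253 and 336 FPKM (-0.21 ± 0.17). Trp53 itself lay between 32.7 and 42.1 FPKM (-0.02 ± 0.14). Of 21 targets of arrest and feedback, 4 fell, against 7.25% over all genes, and 0 rose in limma, and at an unadjusted p below 0.05 7 were lower and 0 higher. They were Pidd1 (-1.0 ± 0.27), whose product assembles a caspase-2 platform, Trp53inp1 (-0.65 ± 0.19), Ppm1d (-0.63 ± 0.20), a phosphatase that shuts off the damage response, and Ccng2 (-0.61 ± 0.16). Each of the 4 calls was lost without the 3 h library, and without the 8 h library 1 was kept.

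Among 17 p53 targets that promote cell death, 2 rose and 0 fell in limma, and at an unadjusted p below 0.05 3 were higher and 3 lower. The 2 rises are 11.8% of the list, near the 10.2% over all genes. Bak1, which perforates mitochondria, went from 16.3 to 20.1 FPKM early to 27.0 to 32.0 FPKM late (0.60 ± 0.14, adjusted p = 0.00424), and Perp, a membrane protein, changed by 0.76 ± 0.23. Bbc3, which codes for PUMA, the main killer of irradiated thymocytes, had the values 45.4, 51.0, 48.6, 39.6, 34.0 and 29.0 FPKM. Its late values lay below its early ones without passing the test (-0.50 ± 0.20, adjusted p = 0.0805), and 2.63 FPKM was measured in the untreated thymus. Bax, a partner of Bak1, lay between 228 and 284 FPKM (-0.20 ± 0.20). Of 20 caspases and death substrates 3 rose, which is 15%, 1 fell and 16 did not pass the test, with a median of -0.01, against 10.2% higher and 7.25% lower over all genes. The 1 that fell was Casp2, the caspase of the Pidd1 platform, which measured 39.4, 29.0, 30.4, 19.9, 19.5 and 15.9 FPKM (-0.80 ± 0.17, adjusted p = 0.00229). The 3 that rose were Casp4 (1.09 ± 0.29) and Casp1 (0.60 ± 0.16), caspases of inflammatory death, and Dnase1l3, a nuclease of phagocytes (0.70 ± 0.24). Without the 3 h or the 8 h library, Perp, Casp1, Casp4 and Dnase1l3 lost their calls, while Bak1 and Casp2 kept theirs.

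Double positive thymocyte genes fell in 15 of 27 cases, against 7.25% over all genes, with a median of -0.67. None rose in limma, and at an unadjusted p below 0.05 23 were lower and 0 higher. The summed level of the list was 4398, 3824 and 4395 FPKM at 3, 4 and 5 h, and 2811, 2679 and 2187 FPKM at 6, 7 and 8 h. Rag1, which cuts DNA at antigen receptor genes, measured 407, 385, 422, 247, 248 and 176 FPKM against 314 FPKM in the untreated thymus. The early values were flat and the drop came between 5 and 6 h (-0.87 ± 0.12, adjusted p = 6.79e-05). Its partner Rag2 measured 52.6, 43.5, 44.7, 31.7, 33.6 and 26.9 FPKM (-0.59 ± 0.10). Dntt, the polymerase that adds untemplated bases to the joints, measured 358, 268, 329, 177, 193 and 136 FPKM (-0.92 ± 0.13). Mns1 changed by -1.26 ± 0.24. Cd4 measured 205, 201, 234, 160, 152 and 127 FPKM and Cd8a 276, 249, 332, 184, 167 and 120 FPKM. Neither passed the test, with changes of -0.54 ± 0.19 (adjusted p = 0.0515) and -0.87 ± 0.35 (adjusted p = 0.0814), although their windows did not overlap. Leaving out the 3 h library left 9 calls in the list and leaving out the 8 h library 6, and Rag1, Rag2, Dntt and Mns1 were called in each fit.

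Genes of other thymocyte stages included rises. Il2ra, the CD25 receptor chain that marks late double negative thymocytes and also activated or regulatory T cells, measured 8.24, 10.0, 14.7, 25.6, 40.5 and 59.3 FPKM. It rose at every hour (1.79 ± 0.20, adjusted p = 6.3e-06) and passed its level in the untreated thymus, 15.8 FPKM, at 6 h. Hes1, a target of Notch signalling, rose from 10.1 to 37.6 FPKM over the 6 hours (1.07 ± 0.24). Cd44 (1.09 ± 0.36), an adhesion receptor, and Spi1 (0.83 ± 0.24), the factor PU.1, also rose, and both are also made by myeloid cells. These were 4 of 19 genes of the double negative and Notch list, against 10.2% over all genes. In limma 0 of the list fell, and at an unadjusted p below 0.05 8 were higher and 3 lower. Changes lay above 0 in 11 of the 19 and below 0 in 8. Below 0 were the receptors Notch1 (-0.36 ± 0.16) and Notch3 (-0.35 ± 0.22), and also Myb (-0.66 ± 0.25) and Bcl11b (-0.42 ± 0.18). Nrarp, of the same list, changed by 0.23 ± 0.27. None of these passed the test. Among 25 genes of mature T cells 2 rose and 2 fell, which is 8.0% each way, near the 10.2% and 7.25% over all genes. Zbtb7b, which commits cells to the CD4 lineage, rose (0.57 ± 0.10), as did Ly6c2 (0.74 ± 0.25). Ccr9, the receptor that keeps thymocytes near CCL25, fell from 102 to 125 FPKM early to 48.0 to 62.2 FPKM late (-0.98 ± 0.17), and Cd28, a costimulatory receptor, fell as well (-0.75 ± 0.14). Cd44, Spi1 and Ly6c2 each lost their calls without the 3 h library and without the 8 h library, and Ly6c2 also without the 4, 6 or 7 h library.

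**Figure D3:**
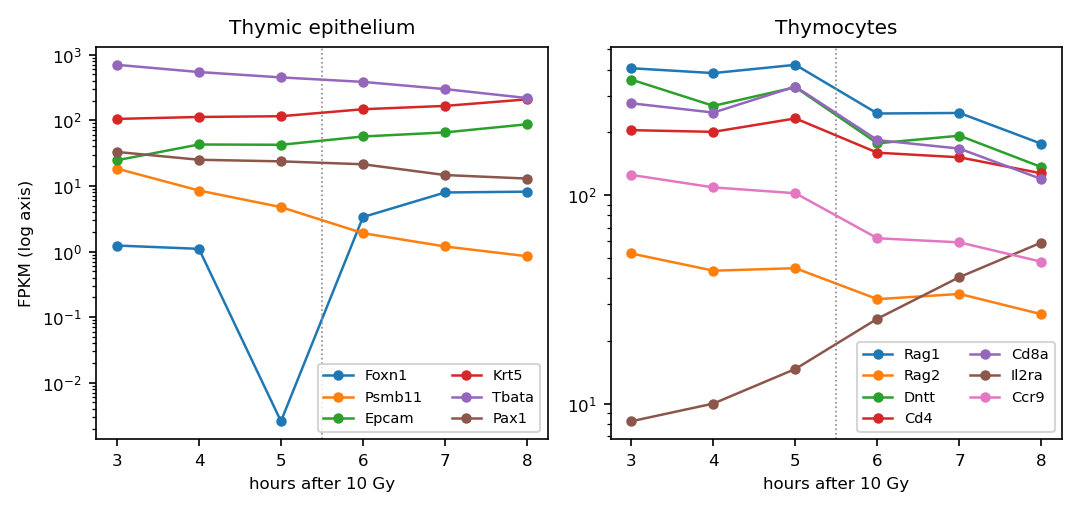
FPKM of single genes at each hour after 10 Gy on a log axis, 1 library per point; the dotted line separates the windows. Psmb11 falls from 18.4 to 0.848 FPKM while Foxn1, listed at 0.00259 FPKM at 5 h, reaches 8.18 FPKM, and Il2ra climbs from 8.24 to 59.3 FPKM while Rag1 falls to 176 FPKM.

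The genes of the thymic epithelium split. Psmb11, the catalytic subunit of the thymoproteasome, which cortical epithelial cells use to prepare peptides for positive selection, had the lowest change of the 10 falls named by rank. From 3 to 8 h it measured 18.4, 8.51, 4.76, 1.90, 1.19 and 0.848 FPKM, a decrease at every hour (-2.16 ± 0.24, adjusted p = 4.62e-06). The mean early level was 8.02 times the late one. The untreated thymus held 22.1 FPKM. Foxn1, on chr11, measured 1.23, 1.10 and 0.00259 FPKM early and 3.35, 7.95 and 8.18 FPKM late, with 4.89 FPKM in the untreated thymus (2.08 ± 0.24, adjusted p = 6.3e-06). All late values lay above all early ones, also without the 5 h value, which is close to 0. Psmb11 is a known target of FOXN1, and the pair moved in opposite directions. Pax9, a factor of the thymus anlage, rose from 3.86 to 4.21 FPKM early to 5.66 to 6.31 FPKM late (0.47 ± 0.08), and Krt5, a keratin of the medulla, from 105 to 116 FPKM to 148 to 209 FPKM (0.63 ± 0.13).

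Of 24 epithelial genes, 10 rose and 3 fell, against 10.2% and 7.25% over all genes, and the median was 0.40. The 3 that fell were Psmb11, Tbata (-0.92 ± 0.21), which is made by cortical epithelium and restrains its growth, and Pax1 (-0.72 ± 0.15), a factor of the pharyngeal pouches. Tbata and Pax1 decreased at every hour, Tbata from 702 to 219 FPKM. Ccl25, the chemokine that draws in thymocyte precursors, measured 766, 718, 608, 559, 501 and 433 FPKM and did not pass the test in the fit over 4 tissues (-0.49 ± 0.90, adjusted p = 0.757). With the thymus libraries at 1 to 8 h alone its adjusted p was 0.0524. The list held 5 rises without the 3 h library and 5 without the 8 h library, and 3 were called lower in every such fit. The fat and muscle sums that differ between the hours are given above, and their part in these changes was not tested.

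**Figure D4:**
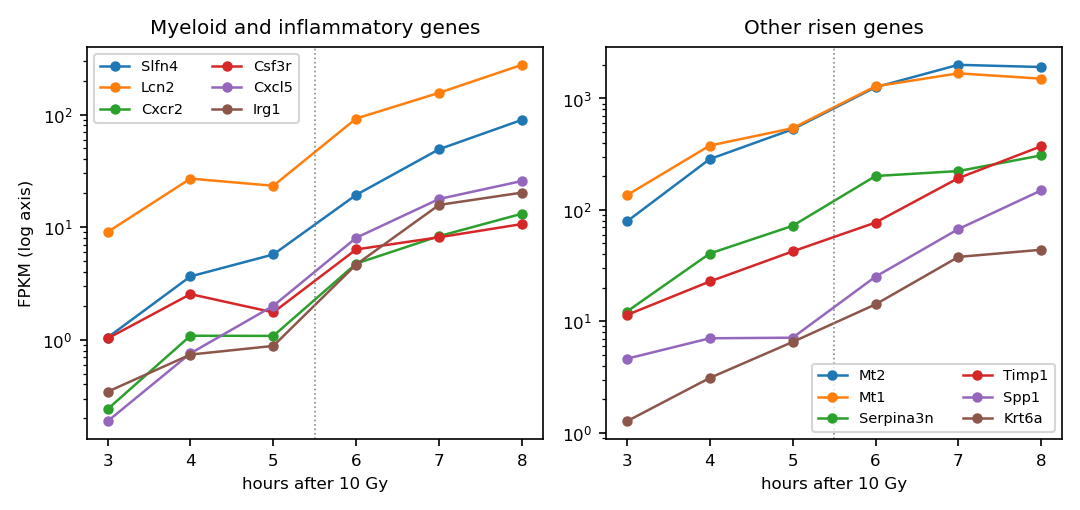
FPKM of risen genes, named by rank or from a list, by hour after 10 Gy, on log axes with 1 library per point; the dotted line separates the windows. All 12 genes lie higher at each of 6, 7 and 8 h than at any of 3, 4 and 5 h. For genes named by rank this was a condition of the choice. Mt2 and Mt1 reach 2004 and 1681 FPKM at 7 h.

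The rises named by rank began with Slfn4, a Schlafen gene of myeloid cells, which measured 1.04, 3.65, 5.72, 19.3, 49.2 and 89.8 FPKM, against 1.11 FPKM in the untreated thymus. It had the highest change of the 10 rises named by rank, 3.50 ± 0.47 (adjusted p = 4.44e-05), and its mean was 15.2 times higher late. Spp1, which codes for the secreted protein osteopontin, measured 4.61, 7.04, 7.13, 25.2, 67.3 and 150 FPKM (3.17 ± 0.41). Cxcl5, a neutrophil attractant, went from 0.189 to 25.7 FPKM (3.17 ± 0.61), and Irg1, which makes itaconate in activated macrophages, from 0.345 to 20.3 FPKM (2.95 ± 0.32). Timp1, an inhibitor of matrix proteases, measured 11.4, 22.8, 42.4, 76.9, 193 and 373 FPKM (2.93 ± 0.51). Krt6a, a keratin of wounded epithelium, measured 1.27, 3.10, 6.52, 14.2, 37.8 and 43.9 FPKM (2.85 ± 0.30). Serpina3n, a protease inhibitor of the acute phase, increased at every hour from 12.2 to 308 FPKM (2.82 ± 0.41). Ptx3, a soluble pattern receptor, measured 0.239, 6.14, 15.3, 36.9, 31.9 and 30.7 FPKM, a plateau from 6 h on (2.70 ± 0.47). None of these genes lost its call without any 1 of the 6 libraries, but with only these 6 libraries in the fit Ptx3 had an adjusted p of 0.0613.

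The metallothioneins Mt2 and Mt1, small proteins that bind zinc and copper, are neighbours on chr8. Mt2 measured 78.8, 286, 529, 1261, 2004 and 1915 FPKM (2.88 ± 0.62, adjusted p = 0.00242), from 21.8 FPKM in the untreated thymus. Mt1 measured 135, 378, 541, 1285, 1681 and 1505 FPKM (2.29 ± 0.47, adjusted p = 0.00185). Both were among the list of glucocorticoid response genes, of which 3 of 22 rose and 0 fell in limma, with a median of -0.03. These 3 are 13.6% of the list, against 10.2% over all genes. At an unadjusted p below 0.05, 3 were higher and 4 lower. The third was Tgm2, a transglutaminase, at 36.4, 57.5, 54.0, 102, 156 and 208 FPKM (1.60 ± 0.30). All 3 were called without any 1 library. The genes usually read as reporters of the glucocorticoid receptor did not pass the test. Fkbp5, a chaperone of that receptor, had a change of -0.01 ± 0.40, Tsc22d3, which codes for GILZ, of -0.70 ± 0.25 (adjusted p = 0.056), and Per1 of -0.32 ± 0.22. Tsc22d3 measured 118, 151 and 132 FPKM early and 103, 81.4 and 65.0 FPKM late.

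Neutrophil genes rose in 11 of 14 cases, against 10.2% over all genes, with a median of 1.46, the highest of the 40 lists. None fell in limma, at an adjusted or an unadjusted p below 0.05. Their summed level was 182, 401, 292, 733, 1246 and 2232 FPKM from 3 to 8 h, and 137 FPKM in the untreated thymus. Cxcr2, the receptor that brings neutrophils to chemokines such as CXCL5, measured 0.241, 1.08, 1.08, 4.74, 8.32 and 13.2 FPKM (2.38 ± 0.23, adjusted p = 1.74e-06). Csf3r, the receptor for G-CSF, measured 1.02, 2.54, 1.75, 6.34, 8.13 and 10.7 FPKM (1.77 ± 0.20). Lcn2, lipocalin 2, which withholds iron from bacteria and is also made by epithelium, measured 9.04, 27.0, 23.3, 92.2, 156 and 277 FPKM (3.07 ± 0.49). Mmp8, the neutrophil collagenase, changed by 1.51 ± 0.28. Each of these 4 kept its call without any 1 library, and 9 of the list were called without the 3 h library and 8 without the 8 h library. Ly6g, the surface marker used to sort mouse neutrophils and singled out here after its values were seen, stood at 0.951 to 3.05 FPKM in all 6 libraries (0.16 ± 1.13, adjusted p = 0.942). Of the list of 18, the 4 genes Mpo, Elane, Stfa2 and Prtn3 were not tested.

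Of 29 macrophage genes, 9 rose, against 10.2% over all genes, and 0 fell in limma, with a median of 0.33, and their summed level went from 4157 to 4963 FPKM early to 5769 to 6941 FPKM late. Fcgr1, an Fc receptor, changed by 1.23 ± 0.32, Cd68, a lysosomal protein of phagocytes, by 0.62 ± 0.18 and Ctsb, a lysosomal protease, by 0.48 ± 0.13. Hmox1, which degrades the haem of ingested cells, measured 115, 215, 257, 466, 494 and 615 FPKM (1.49 ± 0.43, adjusted p = 0.0185), from 14 FPKM in the untreated thymus. These calls were fragile: 1 gene of the list was called higher without the 3 h library, 5 without the 5 h or the 7 h library and 0 without the 8 h library. At an unadjusted p below 0.05, 11 were higher and 0 lower with all libraries. Hmox1 had adjusted p = 0.136 and 0.0908 in these fits. Among 18 genes of dendritic cells and MHC class II, 1 rose, which is 5.56% against 10.2% over all genes. This was Itgax (0.94 ± 0.21), with a call that was lost without the 3 h library.

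Interferon-stimulated genes rose in 13 of 28 cases, against 10.2% over all genes, with a median of 0.87. Most of the gain fell in the last hours. The summed level was 1381, 1468 and 1613 FPKM at 3, 4 and 5 h, and 1954, 2556 and 3663 FPKM at 6, 7 and 8 h. Rsad2, which codes for the antiviral enzyme viperin, measured 4.94, 8.23, 10.6, 11.7, 37.5 and 134 FPKM (2.23 ± 0.57, adjusted p = 0.00853). Ifih1, a sensor of double-stranded RNA, measured 8.55, 9.91, 10.1, 13.3, 19.9 and 38.2 FPKM (1.12 ± 0.24). Oas2, of the same antiviral defence, changed by 1.34 ± 0.34, and Ddx58, the sensor RIG-I, by 0.81 ± 0.23. Without the 3 h or the 8 h library 1 of the 28 genes was called higher, without the 4 h library 7, without the 7 h library 8 and without the 6 h library 21. With the 6 thymus libraries alone it was 6. Ifih1 was the gene that kept its call in each fit that left out a library.

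Of 25 genes of NF-kB and inflammatory cytokines, 7 rose and 0 fell in limma, against 10.2% and 7.25% over all genes. The median was 0.69, and at an unadjusted p below 0.05 12 were higher and 0 lower. Relb, a subunit of the alternative NF-kB pathway, measured 14.9, 27.0, 32.9, 42.6, 37.7 and 42.7 FPKM (0.76 ± 0.18). Nfkb2, its partner, changed by 0.59 ± 0.16, Bcl3, a nuclear regulator of the pathway, by 1.75 ± 0.42, and Icam1, an adhesion molecule, by 0.90 ± 0.25. The late values of Relb, Nfkb2 and Icam1 lay on a plateau, and the lowest of the 6 values was that of 3 h in each. Without the 3 h library 1 gene of the list was called higher and without the 8 h library 2, and Relb kept its call in each fit.

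Smaller shifts concerned the machinery of the cell. Of 29 ribosome biogenesis genes 6 rose, which is 20.7% against 10.2% over all genes, with a median of 0.35. In this list 1 was called without the 3 h or the 8 h library and 2 without the 7 h library. Mybbp1a, a nucleolar protein, measured 12.5, 15.2, 16.7, 24.8, 26.9 and 36.8 FPKM (0.94 ± 0.22). Of the 57 cytoplasmic ribosomal protein genes, 0 passed the test in limma and 1 was higher at an unadjusted p below 0.05, with a median of -0.04. Among 18 heat shock chaperones 3 rose, which is 16.7% against 10.2% over all genes: Hspa4l (0.76 ± 0.16), Bag3 (0.72 ± 0.18) and Hspb1 (1.09 ± 0.33). The endoplasmic reticulum genes Pdia4 (0.55 ± 0.14), Xbp1 (0.61 ± 0.17), Calr (0.44 ± 0.13) and Hspa5 (0.57 ± 0.18) were the 4 of 22 unfolded protein response genes that rose. This is 18.2% of the list, against 10.2% over all genes. Of 21 cholesterol synthesis genes 2 rose and 1 fell, which is 9.52% and 4.76%, under the 10.2% and 7.25% over all genes. Sc5d was among those that rose (0.59 ± 0.13), and Dhcr7, the last enzyme of the pathway, fell (-0.70 ± 0.18). Mybbp1a, Hspa4l and Sc5d kept their calls without any 1 library, and the calls of Bag3, Hspb1, Pdia4, Xbp1, Calr, Hspa5 and Dhcr7 were each lost without the 3 h library, the 8 h library or both.

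Some calls belonged to marker lists of other tissues and cells. Of 8 muscle genes 4 fell, against 7.25% over all genes. Mb, myoglobin, measured 0.715, 114, 20.4, 0, 1.12 and 1.34 FPKM (-3.24 ± 0.88). Actc1 changed by -2.70 ± 0.86, Myh6 by -2.43 ± 0.62 and Mylpf by -1.09 ± 0.29. The list held 1 call without the 4 h library and 2 without the 5 h or the 8 h library. Among 14 B cell genes 3 fell and 1 rose, which are 21.4% and 7.14%, against 7.25% and 10.2% over all genes. Cd79b, a chain of the B cell receptor, had the lowest change, -1.67 ± 0.58, and was listed at 0.000687 FPKM at 8 h against 7.91 to 18.2 FPKM at the other hours, and its call was lost without the 8 h library. Of 15 fat genes, 0 were called in limma, at an adjusted or an unadjusted p below 0.05, and their median was -0.42.

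The spleen, the other lymphoid organ of the series, had libraries at the same hours, so the change in thymus was set against the change in spleen in the same fit. Of 11358 genes tested, 180 changed more upward in thymus, which is 1.58%, and 185 more downward, which is 1.63%. Il2ra rose in thymus while the spleen stood at 4.50, 5.68 and 5.70 FPKM early and 3.89, 3.70 and 3.39 FPKM late, a difference between the changes of 2.22 ± 0.29 (adjusted p = 0.000262). Prg4, lubricin, measured 1.23 to 3.70 FPKM early and 8.11 to 25.2 FPKM late in thymus, and 0.654 to 2.0 FPKM in spleen (2.34 ± 0.43). Syt13 fell in thymus and in spleen measured 0.320 to 0.886 FPKM early and 1.16 to 2.90 FPKM late (-2.55 ± 0.35, adjusted p = 0.000391). Arid3a, a DNA-binding factor of lymphocytes, measured 1.73 to 2.13 FPKM early and 0.0658 to 0.328 FPKM late in thymus, against 1.21 to 3.18 FPKM and 4.36 to 6.39 FPKM in spleen (-2.45 ± 0.50). In the S phase list 6 of 38 genes changed more downward than in spleen, Ccne2 among them (-2.20 ± 0.60), and in the NF-kB list 6 of 25 more upward. Ribosome biogenesis genes changed more upward than in spleen in 7 of 29 cases, B cell genes in 5 of 14, and neutrophil genes more downward in 3 of 14. The B cell list had a median change of -1.11 in spleen and -0.30 in thymus, so it was below 0 in both. The ribosome biogenesis list had medians of -0.52 in spleen and 0.35 in thymus. Slfn4 was high late in both organs: it went from 5.5 to 17.0 FPKM early to 165 to 192 FPKM late in spleen. Other rises named by rank also changed in spleen, by 3.17 for Cxcl5, 3.11 for Lcn2, 2.75 for Irg1 and 2.72 for Timp1. Spp1 changed by 2.46 there, Mt2 by 1.71 and Serpina3n by 1.28. Krt6a was listed at 0 FPKM in spleen at each of these hours and Ptx3 at 0 to 0.367 FPKM, and neither was tested against spleen. The neutrophil list had a median change of 2.82 in spleen, against 1.46 in thymus. Without the 3 h thymus library the counts were 47 and 64, without the 4 h one 94 and 108, without the 7 h one 95 and 103, and without the 8 h one 39 and 62. The 6 h spleen library was known from an earlier account to carry pancreas transcripts. With it and the 2 h large intestine library left out, the counts were 196 and 204. Of the calls with all libraries, 145 and 147 were kept.

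**Figure D5:**
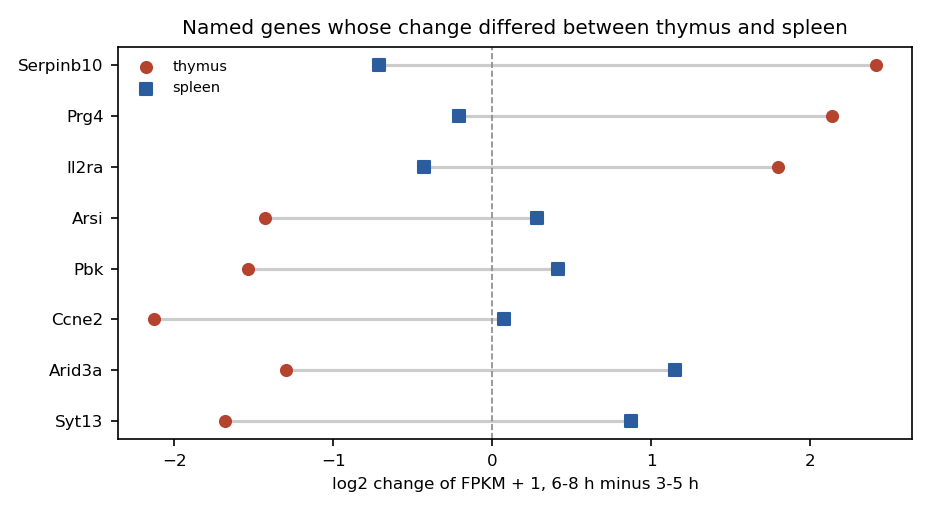
Changes between 3-5 h and 6-8 h on the log2(FPKM + 1) scale in thymus (circles) and spleen (squares) for genes named by rank of the difference. The widest upward gap is that of Serpinb10, 3.13, and the widest downward gap that of Syt13, -2.55.

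Against the mean change of small and large intestine, 808 of 10279 genes changed more upward in thymus, which is 7.86%, and 589 more downward, which is 5.73%. The cell cycle lists differed most often: 32 of 35 S phase genes and 34 of 38 G2 and M phase genes changed more downward in thymus, and none more upward. Ccna2, cyclin A2, had changes of -1.07 in thymus, 1.03 in small intestine and 0.90 in large intestine, a difference of -2.04 ± 0.42 (adjusted p = 0.00273). Ccnb2, cyclin B2, which did not pass the test in thymus alone (-0.60 ± 0.38), had changes of 1.76 and 1.13 in the intestines (-2.04 ± 0.47). Mt2 went the opposite way, with 2.88 in thymus, -1.85 in small intestine and -1.35 in large intestine (4.48 ± 0.76, adjusted p = 0.000714). Interferon genes changed more upward in thymus in 8 of 27 cases, Rsad2 among them (2.89 ± 0.69), and NF-kB genes in 7 of 12 cases. Without the 3 h thymus library the counts were 400 and 309, and without the 8 h one 371 and 287. The comparisons with spleen and intestines share the thymus libraries and are not independent of each other.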

How the data were processed

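The values are FPKM for 13611 genes, as the authors deposited them for 54 libraries. Per the labels' protocols, organs were kept in RNAlater and ground in Trizol, and polyadenylated RNA went into TruSeq libraries without strand information. TopHat2 2.1.0, Cufflinks 2.1.1 and the build mm10 are named in the submitters' processing notes. How genes were chosen for the table is not stated there. Without strand, reads of overlapping genes cannot be told apart, and fragments shared by near-identical genes such as Bcl2a1b and Bcl2a1d may be split between them.

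Log2(FPKM + 1) was fitted with limma 3.58.1 in R 4.3.3 over the 40 tissue libraries, with 1 mean per tissue and time window, 20 residual degrees of freedom and a variance trend. Genes with a mean of at least 1 FPKM were tested, two-sided, and called at a Benjamini-Hochberg adjusted p below 0.05 over all of them. The difference between tissues was tested as a contrast in the same fit. Library totals were not used, and no counting intervals are given. Relative depth was read from the steps between values below 0.6 FPKM.

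Named genes were the 10 highest and 10 lowest changes among called genes with windows that did not overlap (5 each way for differences between tissues). Predicted genes and genes near 0 in 1 library and above 1 FPKM in another of the same window were left out. To these were added up to 4 members of lowest p from a described list and its defining members. Ccne1, the MCM subunits, Tbata, Pax1 and Ly6g were singled out after their values were seen. The members and the 40 lists were chosen with earlier results of these data known. A few genes that this rule names are not reported here. Symbols matched RefSeq for 13531 genes. Alternatives changed the pseudocount, scaling, filter, libraries and variance model.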

Additional observations from a re-analysis of the deposited data

Results flagged for a closer look

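The change between the windows differed between thymus and spleen in 180 genes upward and 185 downward, by the contrast of the 2 changes in limma at an adjusted p below 0.05. On the log2(FPKM + 1) scale the named differences were 3.13 for Serpinb10, 2.34 for Prg4 and 2.22 for Il2ra. In the other direction they were -2.55 for Syt13, -2.45 for Arid3a, -2.20 for Ccne2, -1.95 for Pbk and -1.71 for Arsi. Serpinb10 was listed below 0.001 FPKM at 3 h and at 5 h in thymus, so its change rests on early values close to 0.

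Against the mean of both intestines the same contrast found 808 genes changed more upward in thymus and 589 more downward. The named upward differences were 4.48 for Mt2, 3.70 for Slfn4, 3.13 for Mt1, 2.89 for Rsad2 and 2.89 for Itga3. The named downward differences were -2.04 for Ccnb2, -2.04 for Ccna2, -1.97 for Ccne2, -1.95 for Spc24 and -1.88 for Nusap1. Of these 5, Ccnb2 and Nusap1 were not called in thymus alone.

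The 24 h thymus library, which no comparison here uses, held genes of intestine, pancreas and skin at a summed level of 5822 FPKM, against 25.3 FPKM in the untreated thymus and 38.4 to 121 FPKM at 3 to 8 h.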

How the results depend on the processing

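Signs were compared for the named genes only, and no called value of these changed sign under any alternative run. Alternatives that changed only the variance model, the gene filter or the libraries of other tissues leave the thymus change itself the same. Under those, calls could move but signs could not. Of 3555 values of single genes under alternatives, 3017 stayed on the same side of the threshold, 419 were no longer called and 119 became called. With a pseudocount of 0.1 FPKM, 536 genes fell in thymus, and 72 and 93 genes changed more upward and more downward than in spleen. Quantile normalization gave 1669 falls and moved the median of all genes to -0.05. With the 6 h spleen and 2 h large intestine libraries left out of the fit, 1489 genes rose and 1041 fell in thymus. A linear slope over the 6 hours called 2107 rises and 1474 falls, and a required 2-fold change left 356 and 133. Leaving out 1 thymus library gave 547 to 1332 rises and 336 to 964 falls, 39 to 268 genes changed more upward and 62 to 267 more downward than in spleen, and 371 to 940 and 287 to 664 against the intestines. The lowest counts came without the 8 h library and those without the 3 h library were close to them. No paired analysis was possible because each hour has 1 library and the 2 windows hold different hours. The 8 h library was the shallowest or among the shallowest, so low values there are the least precise.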

Other observations

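Few genes of blood vessels and stroma passed the test between the windows. The median change was 0.40 over 16 endothelial genes, 15 of them above 0, and 0.30 over 21 fibroblast and matrix genes, 16 of them above 0, against -0.00 over all genes. Acta2, smooth muscle actin, measured 33.0, 36, 49.8, 61.7, 117 and 168 FPKM from 3 to 8 h and was the 1 of 21 fibroblast and matrix genes that rose (1.43 ± 0.39). Flt1 (0.89 ± 0.23), a receptor for vascular endothelial growth factor, and Plvap (0.85 ± 0.28) were the 2 of 16 endothelial genes that rose. Slc2a1, the glucose transporter GLUT1, rose from 12.7 to 52.7 FPKM (1.14 ± 0.31) and with Ldha (0.42 ± 0.14) made up the 2 of 20 glycolysis and hypoxia genes called. Fosl1, a subunit of the AP-1 factor, was listed at 0 in the untreated thymus and measured 4.59, 9.73, 11.3, 15.5, 23.7 and 36.9 FPKM (1.46 ± 0.38). With Klf6 (0.63 ± 0.21) it was 1 of the 2 risen genes among 22 immediate early genes. Bhlhe41, a repressor of the clock, was the 1 of 18 clock genes that rose (1.04 ± 0.22) and the only gene of this paragraph called without any 1 library. Each of the others lost its call without the 3 h library and without the 8 h library. In the 5 lists of this paragraph 4.76% to 12.5% of the genes rose, near or below the 10.2% over all genes.

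Of 11 Bcl2 family genes besides p53 targets, survival genes and killers together, 3 rose, against 10.2% over all genes: Bcl2l2 (0.62 ± 0.15), Bcl2a1d (0.71 ± 0.22) and Bcl2a1b (0.70 ± 0.23), the last a near-identical pair. Bcl2l11, which codes for the killer BIM, measured 38.9, 38.2, 31.9, 26.5, 24.4 and 24.2 FPKM and did not pass the test (-0.52 ± 0.21, adjusted p = 0.0853). Repair and metabolism targets of p53 fell in 3 of 15 cases, Ddb2 (-0.77 ± 0.21), Ddias (-0.76 ± 0.24) and Xpc (-0.44 ± 0.13). Antigen receptor signalling genes fell in 3 of 22, Rasgrp1 (-0.50 ± 0.15) and Lat (-0.55 ± 0.18) among them. The variant histones H2afv (-0.74 ± 0.18), H2afz (-0.64 ± 0.19) and H2afx (-0.69 ± 0.21) were the 3 of 11 histone genes that fell. Lysosomal genes rose in 5 of 26, Tfeb (0.72 ± 0.20) among them, and Ulk1, a kinase that starts autophagy, fell (-0.68 ± 0.17). Splicing genes fell in 4 of 27, Srsf1 (-0.42 ± 0.12), Sf3b1 (-0.26 ± 0.09), Tra2a (-0.44 ± 0.15) and Clk4 (-0.32 ± 0.11). Of 77 oxidative phosphorylation genes 3 were called lower, which is 3.90%, under the 7.25% over all genes. Of the aminoacyl-tRNA synthetases 4.76% (1 of 21) and of the proteasome subunits 3.23% (1 of 31) were called higher, under the 10.2% over all genes. Among erythroid genes (1 of 8) and genes of intestine, pancreas and skin (1 of 7) a single gene was called higher. Each call named in this paragraph was lost without at least 1 of the 3, 5 and 8 h libraries.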
